A study of Mus musculus with 4 samples.

Results

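The genes described here are 10 components of transforming growth factor beta (TGF-beta) and bone morphogenetic protein (BMP) signalling, taken by symbol from a table of 22565 protein-coding genes: the receptors Tgfbr1, Tgfbr2, Bmpr1a and Bmpr2, the signal transducers Smad2, Smad3, Smad4 and Smad7, and the target genes Id1 and Id2. All 10 symbols matched 1 row each. The RNA came from untreated mice aged 6 months, whose alveolar type II (AT2) cells, the lung epithelium that secretes surfactant, were sorted from lungs by flow cytometry. Of 4 libraries, 2 carry the title KO and 2 the title wild type (WT). The growth protocol calls the mutant mice Fbxo45-cKO; the product of Fbxo45 recognises substrates for a ubiquitin ligase. The genotype field of KO replicate 1 names Fbxo45 and that of KO replicate 2 names Fbxo46. The sources used here give neither the Cre driver, the deleted part of the gene nor the strain, and do not say whether replicates were separate animals. The p-values therefore reflect variation between libraries, some of which may be technical.

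TGF-beta and BMP ligands bind pairs of type I and type II serine/threonine kinase receptors. TGF-beta receptors phosphorylate Smad2 and Smad3, and BMP receptors phosphorylate Smad1, Smad5 and Smad9; each joins Smad4 and enters the nucleus. Smad7 is induced by the pathway and inhibits it, and Id1 and Id2, which encode inhibitors of basic helix-loop-helix transcription factors, are classic BMP targets. In the alveolus, TGF-beta and BMP signals are known to influence AT2 cell growth and differentiation.

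The depth behind the values was 9507423 and 7066419 fragments in KO replicates 1 and 2, against 4167115 and 8200166 in WT replicates 1 and 2. Fbxo45 was at 4.41 and 7.58 FPKM (fragments scaled to transcript length and library total) in the libraries labelled KO, against 4.60 and 5.91 FPKM in WT, so its level did not separate the groups, and directions below are those of libraries labelled KO. AT2 markers summed to 82294 and 116910 FPKM in libraries labelled KO, against 130816 and 124525 FPKM in WT. Fast skeletal muscle markers summed to 892.6 FPKM in KO replicate 1 and to at most 9.05 FPKM in the other libraries. The 6 T and NK cell markers were listed at 0 in every library. The 8 endothelial markers summed to at most 2.55 FPKM. The macrophage markers, of which Marco, Emr1 and Siglec5 were listed at 0 in every library, summed to between 7.13 and 13.6 FPKM, mostly Cd68. Markers of other lung epithelium were well above the T and NK cell, endothelial and macrophage markers. The 7 alveolar type I markers summed to 962.8 and 620.5 FPKM in libraries labelled KO, against 757.2 and 625.5 FPKM in WT. The 3 club cell markers summed to 1137 and 807.4 FPKM, against 1317 and 895.2 FPKM in WT. In KO replicate 1 the muscle sum of 892.6 FPKM was close to the alveolar type I sum.

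No gene of the 10 passed the test between the groups. In limma-trend on log2(FPKM + 1), 0 of 11055 tested genes (0%) had an adjusted p under 0.05, so no member could be set against a background of calls; 535 (4.84%) had an unadjusted p under 0.05, and none of the 10 members was among them. All 10 members passed the filter of at least 1 FPKM in at least 2 libraries, and each did so in all 4 libraries. On this scale 7 members were higher and 3 lower in the KO-labelled libraries, with a median log2 difference of 0.13, beside a median of 0.035 over all tested genes, of which 5984 were higher and 5071 lower. Both KO-labelled FPKM values lay above both WT values in 3 members, against 20.0% of all tested genes, and below both in none, against 15.1%. In fragments scaled to the library total only, they lay above in 2 members, against 16.4%, and below in 2, against 17.1%. edgeR's quasi-likelihood test on recovered fragments had no call among 11705 genes either; 372 of them (3.18%), no member included, reached an unadjusted p under 0.05. DESeq2 called 7 of 15326 (0.0457%), no member included, while 279 (1.82%), again without a member, reached an unadjusted p under 0.05. With 2 libraries against 2, an exact two-sided permutation test of a single gene cannot go below p = 0.333.

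Per length, Id2 was by far the most abundant member. It averaged 150 FPKM over the 4 libraries, above 97.5% of tested genes, and its lowest value, 116.7 FPKM, lay above the highest value of any other member, 54.5 FPKM. Next in order of mean FPKM came Bmpr1a, Tgfbr2, Smad2, Bmpr2, Smad3, Smad4 and Tgfbr1, and the 4-library ranges of each of these neighbours overlapped, from Bmpr1a at 39.7 FPKM to Tgfbr1 at 14.7 FPKM. Smad7 and Id1 were lowest, at means of 8.68 and 8.03 FPKM, and their ranges overlapped each other. In these bulk samples, fewer cells of a type and less RNA per cell cannot be told apart.

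**Figure D1:**
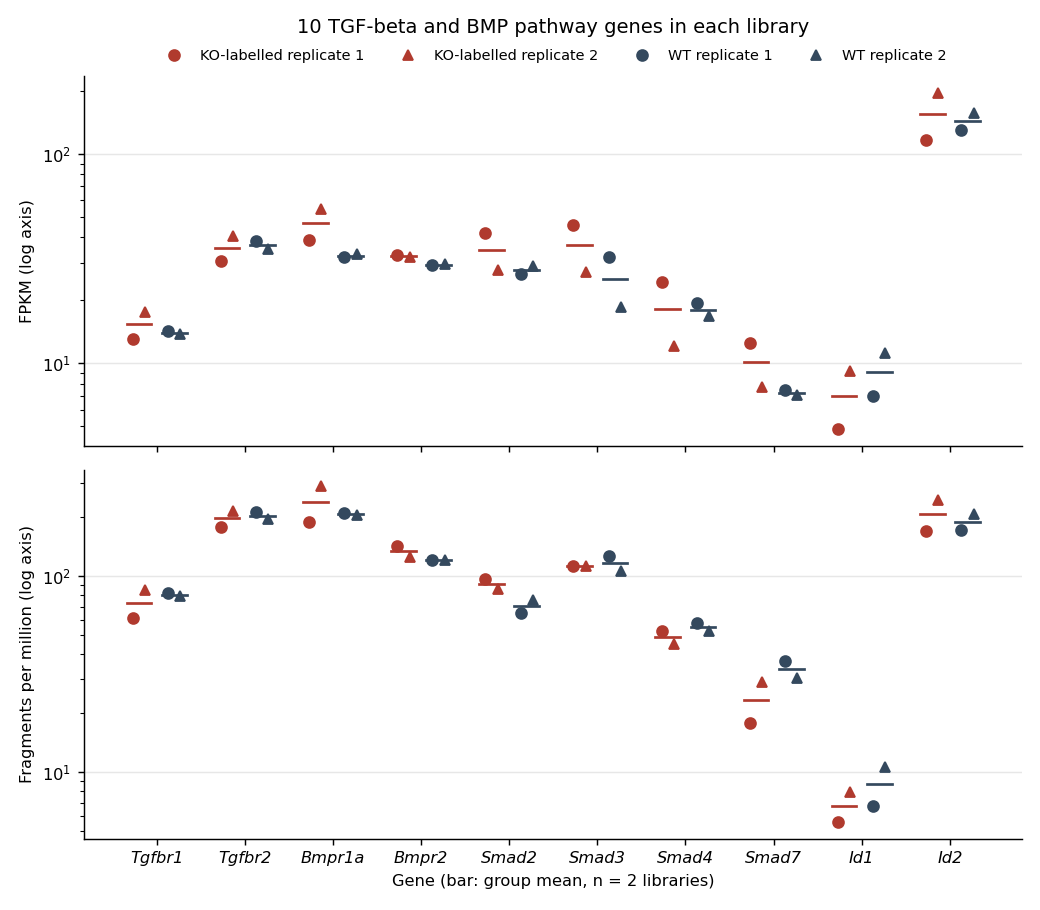
FPKM (top) and fragments scaled to the library total only (CPM, bottom) of the 10 genes, on log axes; each point is a library, red for KO-labelled and dark for WT, and bars are group means of 2 libraries. Id2 stands above all other genes in FPKM, and Smad7 is higher in the KO-labelled libraries in the top panel and lower in the bottom panel.

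Among the receptors, the type I BMP receptor Bmpr1a (ENSMUSG00000021796, mm10 chromosome 14, 34410734 to 34503341, minus strand) had the smallest unadjusted p of the 10 in limma on FPKM. It was at 38.8 and 54.5 FPKM in libraries labelled KO, against 32.1 and 33.2 FPKM in WT. Both KO-labelled values were above both WT values, as they were for 20.0% of tested genes, but the KO-labelled libraries lay further apart than the groups did. The means were 46.7 ± 11.1 and 32.7 ± 0.802 FPKM (SD, n = 2 each), giving a log2 difference of 0.48 (SE 0.235, limma unadjusted p = 0.0876, adjusted p = 0.948). Counted as fragments scaled to the library total only (CPM), Bmpr1a stood at 189.2 and 287.8 in the KO-labelled libraries, against 211.4 and 205.1 in WT, and the groups overlapped. The limma log2 difference of CPM was 0.16 (unadjusted p = 0.515). Here and below, limma on CPM used CPM further scaled by TMM library factors, which ran from 0.981 to 1.01. On fragments the smallest p of the 10 was that of Smad2, in limma on CPM as in edgeR, where it was 0.108. The exact binomial 95% intervals of the KO-labelled values, 180.6 to 198.2 CPM in replicate 1 and 275.5 to 300.6 CPM in replicate 2, did not meet, so these libraries differed by more than counting error; intervals of this kind cover counting error only.

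Bmpr2 (ENSMUSG00000067336, chromosome 1, 59764279 to 59870549, plus strand), the type II BMP receptor, was the steadiest member. It was at 33.1 and 32.1 FPKM in libraries labelled KO, against 29.5 and 29.7 FPKM in WT. The KO-labelled values lay above both WT values on this scale and in CPM, where they were 143.2 and 125.7 against 120.7 and 121.7; 16.4% of tested genes did so in CPM. The log2(FPKM + 1) difference was 0.13 (SE 0.193), with a 95% interval of 0.789-fold to 1.52-fold (limma adjusted p = 0.969).

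The TGF-beta receptors overlapped between groups on both scales. The type I receptor Tgfbr1 (ENSMUSG00000007613, chromosome 4, 47353222 to 47414931, plus strand) measured 13.1 and 17.7 FPKM in libraries labelled KO, against 14.2 and 13.7 FPKM in WT. In CPM it stood at 61.6 and 85.3, against 81.8 and 78.9 in WT: KO replicate 1 was the lowest and KO replicate 2 the highest of the 4 on either scale. The type II receptor Tgfbr2 (ENSMUSG00000032440, chromosome 9, 116087698 to 116175363, minus strand) measured 30.8 and 40.7 FPKM in libraries labelled KO, against 38.3 and 35.3 FPKM in WT. Here too the KO-labelled libraries were the lowest and the highest. The log2 difference was 0.12 (SE 0.241) for Tgfbr1 and -0.053 (SE 0.224) for Tgfbr2, with limma adjusted p values of 0.972 and 0.988.

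Among the transducers, Smad3 (ENSMUSG00000032402, chromosome 9, 63646767 to 63758111, minus strand), a receptor-activated Smad of the TGF-beta branch, had the largest log2(FPKM + 1) difference of the 10 with all 4 libraries. It was at 45.9 and 27.4 FPKM in libraries labelled KO, against 32.1 and 18.6 FPKM in WT, so the groups overlapped. This was a log2 difference of 0.52 (SE 0.361, limma adjusted p = 0.948), but it was 0.16 without KO replicate 1 and 0.14 without WT replicate 2, where that of Bmpr1a was 0.72 and 0.51. In CPM, Smad3 stood at 112.5 in each KO-labelled library, against 126.7 and 106.2 in WT, and the limma log2 difference of CPM was -0.050 (SE 0.173, adjusted p = 0.995). The Smad3 values spread less in CPM than in FPKM.

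Smad2 (ENSMUSG00000024563, chromosome 18, 76241580 to 76305731, plus strand), the other receptor-activated Smad of that branch, was at 41.8 and 27.8 FPKM in libraries labelled KO, against 26.7 and 29.3 FPKM in WT. The groups overlapped in FPKM but not in CPM, where Smad2 stood at 96.5 and 86.5 in the KO-labelled libraries, against 65.0 and 75.7 in WT. In CPM 16.4% of tested genes lay above WT in this way. The limma log2 difference was 0.28 on FPKM (SE 0.257, adjusted p = 0.948) and 0.37 on CPM (SE 0.192, adjusted p = 0.995). The partner shared by both branches, Smad4 (ENSMUSG00000024515, chromosome 18, 73639009 to 73703780, minus strand), measured 24.4 and 12.1 FPKM in libraries labelled KO, against 19.3 and 16.8 FPKM in WT. KO replicate 1 was the highest and KO replicate 2 the lowest, with a log2 difference of -0.061 (SE 0.349, limma adjusted p = 0.988). In CPM both KO-labelled values of Smad4, 52.5 and 45.1, lay below the WT values of 58.0 and 52.8, as in 17.1% of tested genes. In KO replicate 1 and WT replicate 2 the values were nearly equal, and their binomial intervals overlapped (48.1 to 57.4 and 47.9 to 58.0 CPM). The fragments of Smad4 were not whole numbers in any library, so these intervals come from rounded estimates.

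Smad7 (ENSMUSG00000025880, chromosome 18, 75367365 to 75395935, plus strand), the inhibitory Smad, lay on opposite sides of WT in FPKM and in CPM. It was at 12.6 and 7.74 FPKM in libraries labelled KO, against 7.41 and 7.02 FPKM in WT. Both KO-labelled values were above both WT values, as in 20.0% of tested genes. In CPM Smad7 stood at 17.9 and 29.0 in the KO-labelled libraries, against 36.8 and 30.1 in WT. Both were below, as in 17.1% of tested genes. The fragments of Smad7 were not whole numbers in any library, so its CPM values rest on estimates. The log2 difference was 0.41 on FPKM (SE 0.296, limma adjusted p = 0.948) and -0.53 on CPM (SE 0.294, limma adjusted p = 0.995), and -0.51 in edgeR (adjusted p = 0.999). Neither passed the test, and the 95% interval of the FPKM difference ran from 0.801-fold to 2.19-fold on the FPKM + 1 scale. KO replicate 1 was the library furthest from WT in both units, highest in FPKM and lowest in CPM.

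The deposited columns show where these scales part. The authors' estimated counts, divided by the FPKM of the same gene and library, give the count that stood behind 1 FPKM, a quantity that follows the transcript length used. For Tgfbr2 and Bmpr2 it was nearly the same in every library, with a highest-to-lowest ratio of 1.02 and 1.03. For Smad7 it was 10.0 and 28.2 in KO replicates 1 and 2, against 36.0 and 31.1 in WT, a ratio of 3.59. For Smad3 it was 17.2 and 30.9 in the KO-labelled libraries, against 28.6 and 41.5 in WT, a ratio of 2.41. For Smad4 it was 15.1 and 28.0, against 21.7 and 22.7 in WT, a ratio of 1.85. The other 5 members had ratios from 1.09 for Id2 to 1.44 for Smad2. So 3 of the 10 members varied by over 1.5-fold, as did 21.6% of 10870 tested genes that were above 0.1 FPKM in every library, whose median ratio was 1.16. KO replicate 1 was lowest in 6 of the 10 members and in 23.7% of those genes. GENCODE M21 lists 5 transcripts of Smad7, from 392 to 4278 bases, 5 of Smad3, from 406 to 5090 bases, and 6 of Smad4, from 430 to 3384 bases; which annotation release the authors used is not stated, and the part of transcript choice in these ratios was not tested. Between FPKM and edgeR on fragments the direction of 3 members differed, Tgfbr1, Smad3 and Smad7, as did that of 15.1% of 10910 genes tested on both. On fragments 4 members were higher and 6 lower, with a median log2 difference of -0.050, beside 0.016 over all genes tested in edgeR.

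**Figure D2:**
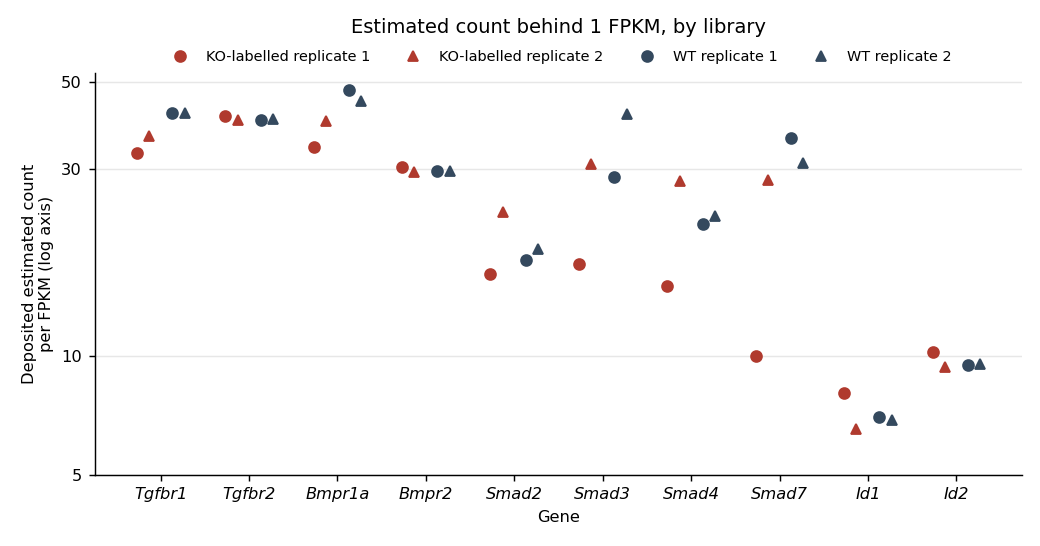
Deposited estimated count divided by deposited FPKM for each of the 10 genes, on a log axis; each point is a library, red for KO-labelled and dark for WT. The 4 points of Tgfbr2 and of Bmpr2 lie together, while KO replicate 1 of Smad7 is at 10.0 and the other 3 libraries are at 28.2 or more.

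**Figure D3:**
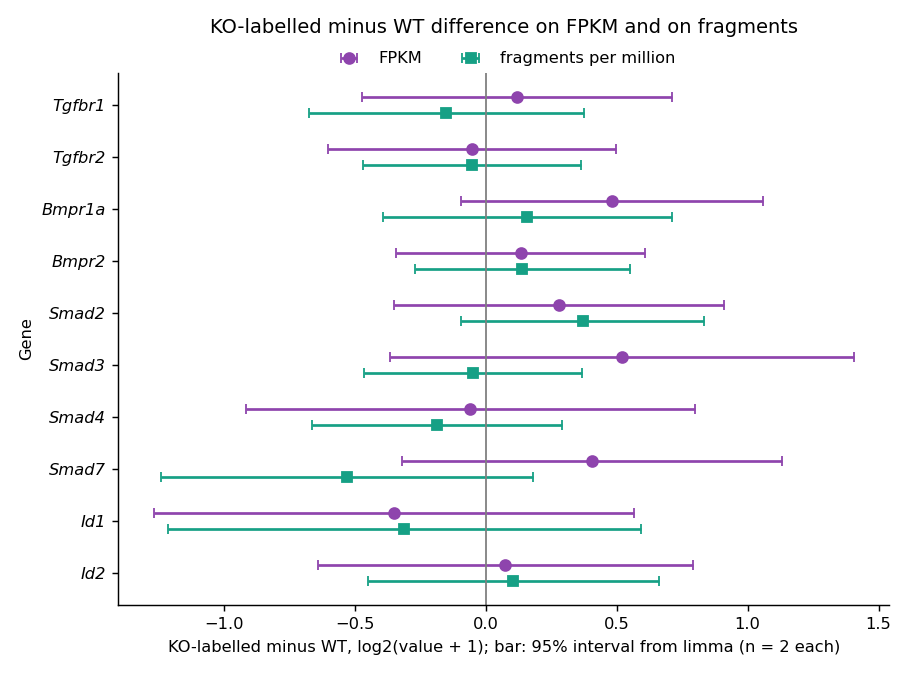
Difference of KO-labelled minus WT for each gene on log2(FPKM + 1), circles, and on log2(CPM + 1), squares, with 95% intervals from limma (n = 2 libraries a group). CPM was further scaled by TMM for this fit. Every interval spans 0, and the points of Tgfbr1, Smad3 and Smad7 lie on opposite sides of 0.

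Among the target genes, Id2 (ENSMUSG00000020644, chromosome 12, 25093801 to 25096092, minus strand) was expressed far above Id1. Its promoter is shown because Id2 was the most abundant member and Smads of the BMP branch act at promoters of this family. The window covers 250 bases before to 50 bases after the start site (RefSeq, GRCm38.p6, chr12:25096043-25096342, minus strand, written 5′ to 3′). Capitals mark the GC-rich letters GGCGCC, a palindrome known as an element bound by BMP-activated Smads. The letters are not particular to Id2 among the members: windows of Bmpr1a and Bmpr2 and 1 window of Tgfbr1 hold them too. Those of Smad3 and Tgfbr2 do not. No window of Id1, Smad2, Smad4 or Smad7 was available to search.
Id2: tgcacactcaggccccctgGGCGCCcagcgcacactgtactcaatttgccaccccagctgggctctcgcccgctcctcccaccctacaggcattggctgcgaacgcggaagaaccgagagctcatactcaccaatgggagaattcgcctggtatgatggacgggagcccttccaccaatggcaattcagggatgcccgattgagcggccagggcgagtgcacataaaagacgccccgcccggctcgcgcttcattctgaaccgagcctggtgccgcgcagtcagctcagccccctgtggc
Searched on both strands, GGCGCC occurs in 11.9% of 32851 such promoter windows. The Smad element core CAGAC, which does not overlap GGCGCC, occurs in 49.6% of them and is not in these letters of Id2. These are matches of letters and no measurement of binding.

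Id2 was at 116.7 and 195.2 FPKM in libraries labelled KO, against 130.7 and 157.3 FPKM in WT. KO replicate 1 was the lowest and KO replicate 2 the highest of the 4, and the means were 156 ± 55.5 and 144 ± 18.8 FPKM (SD, n = 2 each). This gave a log2 difference of 0.074 with a 95% interval of 0.641-fold to 1.73-fold (SE 0.292, limma adjusted p = 0.985). Id1 (ENSMUSG00000042745, chromosome 2, 152736251 to 152737410, plus strand) measured 4.86 and 9.14 FPKM in libraries labelled KO, against 6.95 and 11.2 FPKM in WT. It rested on 53 and 56 fragments in the KO-labelled libraries, against 28 and 87 in WT, and the interval of each count is wide, such as 4.46 to 9.71 CPM in WT replicate 1. The log2 difference of Id1 was -0.35 (SE 0.374, limma adjusted p = 0.956), with a 95% interval of 0.415-fold to 1.48-fold. This wide interval spans lower and higher levels alike, and it is not a limit of detection.

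The other genes of the pathway were taken from lists by role. Some, Tgif1 and Bambi among them, stand in 2 lists, so the counts by list below are not independent. All tested genes split into 5984 higher and 5071 lower on FPKM, and 6077 higher and 5628 lower in edgeR. Of 110 listed genes in the table, each counted once, 60 were tested. On FPKM 40 were higher and 20 lower in the KO-labelled libraries, and limma and edgeR called 0 of them. Their median log2(FPKM + 1) difference was 0.10 on FPKM and -0.0021 in edgeR on fragments, where 30 were higher and 30 lower. The groups did not overlap for 14 with the KO-labelled libraries above (20.0% of all tested genes) and for 6 with them below (15.1% of all tested genes). In limma, 3 of the 60 had an unadjusted p under 0.05: the co-receptors Eng and Tgfbr3 and the target Atoh8, a share close to the 4.84% over all tested genes. Eng and Atoh8 passed the filter only through the group in which they were high.

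**Figure D4:**
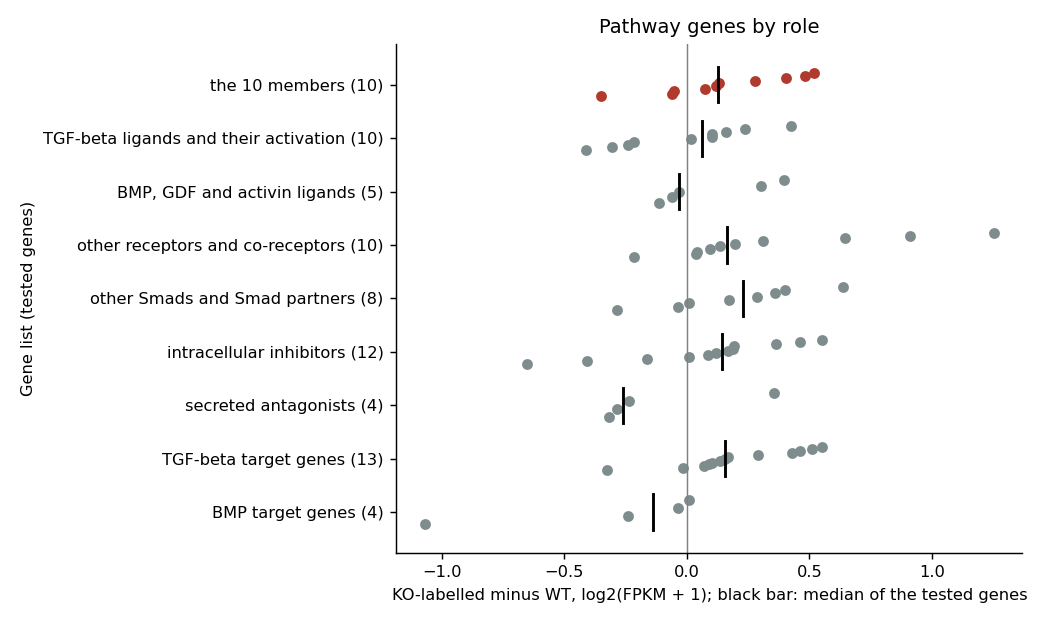
KO-labelled minus WT difference on log2(FPKM + 1) for each tested gene by list, the 10 members in red, with the median of each list as a black bar and the number of tested genes in brackets. Most points lie within 0.7 of 0; Eng and Tgfbr3 on the right and Atoh8 on the left stand furthest out.

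The TGF-beta family ligand genes highest in FPKM were Bmp5, Bmp4 and Bmp3. Of 23 BMP, growth differentiation factor and activin ligands 5 were tested, 2 higher and 3 lower on FPKM and 3 higher and 2 lower in edgeR, and 6 of the 23 were listed at 0 in every library. Bmp5 was at 30.6 and 38.4 FPKM in libraries labelled KO, against 27.7 and 27.4 FPKM in WT. Bmp4 was at 33.2 and 21.4 FPKM, against 26.2 and 28.4 FPKM in WT. Bmp3, a ligand known to oppose other BMPs, was at 23.96 and 22.6 FPKM, against 17.4 FPKM in each WT library, a log2 difference of 0.40 (SE 0.203, limma adjusted p = 0.948). For Bmp3 and Bmp5 both KO-labelled values were above both WT values, as in 20.0% of tested genes. Of 13 genes of TGF-beta ligands and their activation, 10 were tested. On FPKM 6 were higher and 4 lower, with a median log2 difference of 0.060, whereas in edgeR on fragments 1 was higher and 9 lower, with a median of -0.24. Furin, a protease that cuts the ligand precursors, was at 39.0 and 33.2 FPKM, against 49.0 and 40.9 FPKM in WT. Ltbp3, which binds latent TGF-beta, was at 37.9 and 37.1 FPKM, against 47.9 and 39.8 FPKM in WT. The ligand Tgfb3 was at 10.9 and 6.998 FPKM, against 13.2 and 10.8 FPKM in WT. For Furin and Ltbp3 both KO-labelled values were below both WT values, as in 15.1% of tested genes, and Tgfb3 overlapped. The deposited loci of Bmp4, Bmp5, Ltbp3 and Tgfb3 are shared with other genes, 39 genes in all at that of Ltbp3, which makes their values uncertain.

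Of 15 other receptors and co-receptors 10 were tested, 9 higher and 1 lower on FPKM, with a median log2 difference of 0.17, and 7 higher and 3 lower in edgeR, with a median of 0.15. The type I receptor Acvr1 was at 19.4 and 17.2 FPKM in libraries labelled KO, against 15.4 and 13.7 FPKM in WT; it shares a locus and is uncertain. The BMP co-receptor Rgmb was at 15.5 and 18.7 FPKM, against 16.5 and 15.2 FPKM. Tgfbr3, which presents TGF-beta to its receptors, was at 3.67 and 4.70 FPKM, against 2.28 and 1.29 FPKM in WT, with a log2 difference of 0.91 (SE 0.336, limma adjusted p = 0.948) and of 0.48 in edgeR (adjusted p = 0.999). Its count per FPKM varied 2.04-fold. Eng, an endothelial co-receptor, was at 2.87 and 1.44 FPKM, against 0.523 and 0.093 FPKM in WT. It rested on 21 and 24 fragments in libraries labelled KO, against 7 and 3 in WT, and its count per FPKM varied 5.28-fold. It passed the filter through the KO-labelled libraries alone, so its direction was set in advance. It shares a locus with other genes, and the endothelial markers stood at 2.55 and 0.829 FPKM in libraries labelled KO, against 1.25 and 0.545 FPKM in WT; their part in Eng was not tested.

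Of 11 other Smads and Smad partners 8 were tested, 6 higher and 2 lower on FPKM, with a median of 0.23, and 5 higher and 3 lower in edgeR, with a median of 0.032. Smad5, a receptor-activated Smad of the BMP branch, was at 42.2 and 25.9 FPKM in libraries labelled KO, against 20.4 and 21.5 FPKM in WT. Its log2 difference was 0.64 on FPKM (SE 0.281, limma adjusted p = 0.948) and 0.13 in edgeR (adjusted p = 0.999), and its count per FPKM varied 2.52-fold, as in Smad3 and Smad7. Tcf12, which encodes a partner bound by Id proteins, was at 53.9 and 29.2 FPKM, against 26.3 and 33.9 FPKM in WT, with a log2 difference of 0.40 on FPKM and 0.045 in edgeR. Zfyve9, the Smad anchor at the receptor, was at 15.2 and 12.7 FPKM, against 9.20 and 12.2 FPKM in WT; it shares a locus and is uncertain.

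All 12 genes listed as intracellular inhibitors were tested, 9 higher and 3 lower on FPKM, with a median of 0.14. In edgeR 7 were higher and 5 lower, with a median of 0.057. The list also holds Usp15, named here outside the naming rule, whose product is not a plain inhibitor. It is counted among the higher genes on both. Ski, a corepressor of Smads, was at 10.1 and 16.3 FPKM in libraries labelled KO, against 21.02 and 20.5 FPKM in WT, a log2 difference of -0.65 (SE 0.280, limma adjusted p = 0.948) and of -0.75 in edgeR (adjusted p = 0.999). Tgif1, another corepressor and itself a TGF-beta target, was at 23.8 and 20.1 FPKM, against 16.6 and 12.8 FPKM in WT, a log2 difference of 0.55 (SE 0.239, limma adjusted p = 0.948). The groups of Ski and of Tgif1 did not overlap and pointed in opposite directions. Of all tested genes, 15.1% lay below WT as Ski did and 20.0% above WT as Tgif1 did. The ubiquitin ligase genes Nedd4l and Smurf2 were at 42.3 and 31.1 FPKM and at 31.0 and 32.0 FPKM, against 28.3 and 27.7 FPKM and 30.4 and 27.5 FPKM in WT. Of 17 secreted antagonists 4 were tested, 1 higher and 3 lower on FPKM and in edgeR, and 3 of the 17 were listed at 0 in every library. Twsg1, which modulates BMP binding, was the most abundant, at 13.5 and 29.6 FPKM in libraries labelled KO, against 24.02 and 26.6 FPKM in WT, followed by Nbl1 at 5.12 and 4.11 FPKM, against 8.98 and 3.64 FPKM. Fstl3 was at 5.39 and 1.44 FPKM, against 2.01 and 2.15 FPKM in WT, and shares a locus.

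Of 17 TGF-beta target genes 13 were tested, 11 higher and 2 lower on FPKM and 8 higher and 5 lower in edgeR, with a median of 0.15 in each. Some of these, Tgif1 among them, were also counted in lists above, and each of those was higher on FPKM. The basement membrane collagen Col4a1 was at 37.2 and 42.7 FPKM in libraries labelled KO, against 52.0 and 48.4 FPKM in WT. Its KO-labelled values were below both WT values, as in 15.1% of tested genes. Timp3, an inhibitor of matrix proteases, was at 41.0 and 41.1 FPKM, against 48.9 and 31.1 FPKM in WT. Both share a locus and are uncertain. Of 9 BMP target genes besides Id1 and Id2, 4 were tested, 1 higher and 3 lower on FPKM and in edgeR. This list too repeats genes counted above, Bambi among them. The membrane pseudoreceptor Bambi was at 10.1 and 12.2 FPKM, against 11.0 and 11.1 FPKM in WT, and Id3 was at 3.02 and 2.47 FPKM, against 5.37 and 2.05 FPKM. Atoh8, a transcription factor gene, was listed at 0.000136 FPKM in KO replicate 1 and at 0.393 FPKM in KO replicate 2, against 1.73 and 1.25 FPKM in WT. It rested on at most 27 fragments in any library and passed the filter through WT alone, so its direction was set in advance.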

How the data were processed

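Total RNA (1 µg) of sorted AT2 cells was depleted of ribosomal RNA and made into stranded libraries, per the labels' protocols. Tools named in the submitters' processing notes are HISAT2 2.0.4, cutadapt 1.9.3, Cufflinks and Cuffdiff 2.2.1, with the build mm10; their parameters and the annotation release are not stated. The authors deposited FPKM and estimated counts for 22565 genes and 4 libraries, per the file headers. Most of the deposited estimated counts are multiples of 1 constant per library. Dividing by it made 90.9% to 92.6% of positive values whole within 0.05. The quotients, called fragments here, were rounded for edgeR 4.0.16, DESeq2 1.42.0, limma on CPM and the binomial intervals. Printed CPM values were not rounded in this way. Fragments of Smad4 and Smad7 were not whole in any library, such as 499.6 and 170.3 in KO replicate 1, and are estimates. A count of 0 allows up to 0.316 to 0.720 CPM (3 fragments).

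Differences, KO-labelled minus WT, were tested on log2(FPKM + 1) by limma-trend (R 4.3.3 with limma 3.58.1) for genes of at least 1 FPKM in at least 2 libraries, with Benjamini-Hochberg adjustment over all 11055 at 0.05. Such differences understate changes of low genes. Groups were taken from sample titles. Coordinates are the deposited mm10 loci, 1-based. The procedure was run on simulated counts with known changes, and the share of them that it called is not reported here. Alternatives covered pseudocount, filter, scaling, variance model, replicate block, array weights, unit and leaving out each library; limma on log2(CPM + 1), with CPM scaled by TMM, was added after seeing the data.

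The members and lists were chosen with earlier results of these data known. Named were the members, Fbxo45, and per list the 2 genes highest in mean FPKM and the 2 tested genes of smallest unadjusted p; Fbxo46, at 3.82 and 4.80 FPKM in libraries labelled KO against 4.13 and 3.79 FPKM in WT, completes the rule. Genes named outside it are said to be so.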

Additional observations from a re-analysis of the deposited data

How the results depend on the processing

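No member passed the threshold under any of 19 alternatives, and 164 of 190 member values kept their direction. Some could not do otherwise: on FPKM, a changed filter or variance model, the replicate block and array weights left every member difference as it was. Leaving out 1 library in turn gave between 0 and 134 called genes, the latter without KO replicate 2 and 3 without WT replicate 2, and a member median between 0.13 and 0.20; these fits take a lone library to be as variable as the remaining pair. Over these fits the log2 difference ranged from -0.083 to 0.32 for Tgfbr1, -0.25 to 0.14 for Tgfbr2, -0.0057 to 0.56 for Smad2, 0.14 to 0.90 for Smad3, 0.089 to 0.72 for Smad7, 0.24 to 0.72 for Bmpr1a, -0.54 to 0.41 for Smad4, -0.75 to 0.044 for Id1 and -0.30 to 0.44 for Id2. Scaling to equal library totals gave a member median of 0.18 and 0.0017 for Tgfbr2, and quantile normalization gave 0.055 and -0.021 for Id2.

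On fragments, edgeR gave a member median of -0.050, with -0.13 for Tgfbr1, -0.053 for Smad3 and -0.51 for Smad7. Without a filter it called 5 genes, with a median of -0.050, and -0.14, -0.053 and -0.52 for these genes. DESeq2 called 7, with a median of -0.046, and -0.13, -0.048 and -0.51. limma on CPM gave a median of -0.052, and -0.15, -0.050 and -0.53. That fit kept limma, and the change of direction came with the change of unit and scaling. The replicate block left 0 calls on FPKM and the main median of 0.13, which a block cannot change when each group holds both replicate numbers. In edgeR the block gave 2 calls, a median of -0.052, and -0.15, -0.050 and -0.54. The shared replicate numbers were not treated as pairs: the correlation of the differences between replicates of the 2 groups was 0.026 over 11055 genes. Depth limits Id1 most, at 28 fragments in WT replicate 1.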

Other observations

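Genes of the pathway that other cell types are known to make varied between libraries of a group; the genes of this section were chosen after their values were seen. The matrix-associated genes Fn1, Col1a1, Ltbp4 and Ctgf were all lowest in WT replicate 2. Others of the lists went both ways. Timp3, Thbs1, Ltbp1 and Ltbp2 were also lowest there. Tgfbi was lowest in WT replicate 1, Col4a1 in KO replicate 1 and Ltbp3 in KO replicate 2. Fn1 was at 5.62 and 3.45 FPKM in libraries labelled KO, against 5.89 and 1.11 FPKM in WT replicates 1 and 2; it shares a locus and is uncertain. Col1a1 was at 5.39 and 5.80 FPKM, against 9.001 and 2.51 FPKM. Ltbp4 was at 7.87 and 8.90 FPKM, against 12.7 and 3.62 FPKM, and Ctgf at 2.44 and 2.98 FPKM, against 3.27 and 0.771 FPKM. The 12 fibroblast and smooth muscle markers, which include Col1a1, summed to 80.6 and 79.1 FPKM in libraries labelled KO, against 74.5 and 28.6 FPKM in WT. Their part in these genes was not tested.

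Hfe2 (hemojuvelin), a BMP co-receptor known from liver and skeletal muscle, had 84 fragments in KO replicate 1, at 3.68 FPKM, and was listed at 0 in the other 3 libraries. Mstn, the muscle growth inhibitor myostatin, had 12 fragments there, at 0.391 FPKM, and was also listed at 0 in the others. The 6 fast skeletal muscle markers summed to 892.6 and 6.26 FPKM in libraries labelled KO, replicate 1 being the high one, against 0.159 and 9.05 FPKM in WT; their part in Hfe2 and Mstn was not tested. Both genes were below the filter and entered no test.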
